A study of Homo sapiens with 34 samples.

Results

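Collagen genes were taken as every locus of the expression tables whose symbol, split at commas, is COL, digits, A and digits with nothing else. The rule found 44 genes of 28690 loci, and 6 further copies of *COL11A2* on alternate sequences of chromosome 6, all listed at 0. RNA was sequenced from U2OS, a human osteosarcoma line, in its *Bmal1*:*luc* form with a luciferase reporter under the *Bmal1* promoter, after synchronization with dexamethasone. One set was cultured with 5 mM 6-aminonicotinamide (6AN), an inhibitor of the pentose phosphate pathway, and the other with a matched amount of DMSO (control). Each condition had 12 libraries, 1 at each time point, every 4 hr from 0 to 44 hr, where hours are those of the sample labels, which do not give the hour at which 6AN was added, so that 0 hr need not be the start of culture or of treatment. BMAL1 and CLOCK binding was mapped by ChIP-seq in the same cells after 24 hr in 6AN or DMSO, with 1 library per antibody and condition.

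Collagens are the main structural proteins of the extracellular matrix, built from alpha chains wound into a helix, and each chain is the product of its own gene. Fibrillar collagens such as types I, III and V form the fibers of bone, skin and tendon, whereas type IV forms the sheet of basement membranes and type VI the beaded filaments around cells. Osteoblasts, the lineage from which osteosarcoma arises, secrete type I collagen as the bulk of bone matrix, a molecule usually made of *COL1A1* and *COL1A2* chains.

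Levels are given as FPKM, fragments per kilobase of transcript scaled to sequencing depth, which the authors deposited in 1 table per condition. A gene was called expressed when its mean over the 24 libraries was at least 1 FPKM. By this rule 22 of the 44 collagen genes were expressed, beside 13979 of the 28690 loci. The tables hold no read totals. From the steps between low values, relative depth (a table's median being 1) ran from 0.580 to 1.33 in control and from 0.702 to 1.56 in 6AN, with the lowest in control at 4 hr. Of the markers of the labelled lineage, *RUNX2*, *ALPL*, *SPP1*, *SPARC* and the locus that holds *BGLAP* were expressed (5 of 7), and *SP7* and *IBSP* were near 0. Of the mesenchymal markers 4 of 5 were expressed, and none of 5 epithelial, 3 endothelial and 3 leukocyte markers was; each list's summed level ranged from 0.445 to 3.98, from 0.340 to 1.87 and from 0 to 0.564 FPKM over all libraries. Of the chondrocyte markers 2 of 3 were expressed, *SOX9* at 88.3 FPKM in control and 52.7 FPKM in 6AN and *MATN3* at 2.66 and 0.947 FPKM, and *ACAN* was near 0. Their summed level ran from 79.1 to 100.6 FPKM in control and from 45.2 to 66.4 FPKM in 6AN, without overlap, and its part in the collagen levels was not tested.

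The expressed set held 7 of 11 fibrillar, 4 of 6 basement membrane, 3 of 5 beaded filament and 4 of 10 fibril-associated collagen genes. *COL7A1*, the chain of the anchoring fibrils of skin, *COL8A1*, a short-chain network collagen, *COL13A1*, a transmembrane collagen, and *COL18A1*, the precursor of endostatin, made up the rest. *COL7A1* shares its locus with *MIR711* and *COL3A1* shares its locus with *MIR3606*, so each level is that of the shared entry. Transcripts of *COL4A2*, *COL1A1*, *COL6A2*, *COL6A3*, *COL6A1* and *COL4A1* took 81.6% of the summed collagen FPKM in control and 81.5% in 6AN. The other 16 expressed genes were between 1.40 FPKM (*COL4A4*) and 16.02 FPKM (*COL9A2*) on average over the 24 libraries.

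Type I collagen was represented by a single chain. *COL1A1* ranged from 84.5 to 170.5 FPKM in control, whereas *COL1A2* never exceeded 0.106 FPKM and was listed at 0 in 12 of 24 libraries. Of the 22 genes that were not expressed, 11 stayed under 0.2 FPKM in every library, 7 reached between 0.2 and 0.5 FPKM and 4 between 0.5 and 1 FPKM. Those 4 were *COL9A3*, *COL28A1*, *COL14A1* and *COL5A3*, with highest values of 0.983, 0.841, 0.601 and 0.508 FPKM. Among the rest were *COL2A1* and *COL10A1*, the marker collagens of cartilage and of hypertrophic chondrocytes. In 17 of the 22, at least 1 library was listed at 0.

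**Figure D1:**
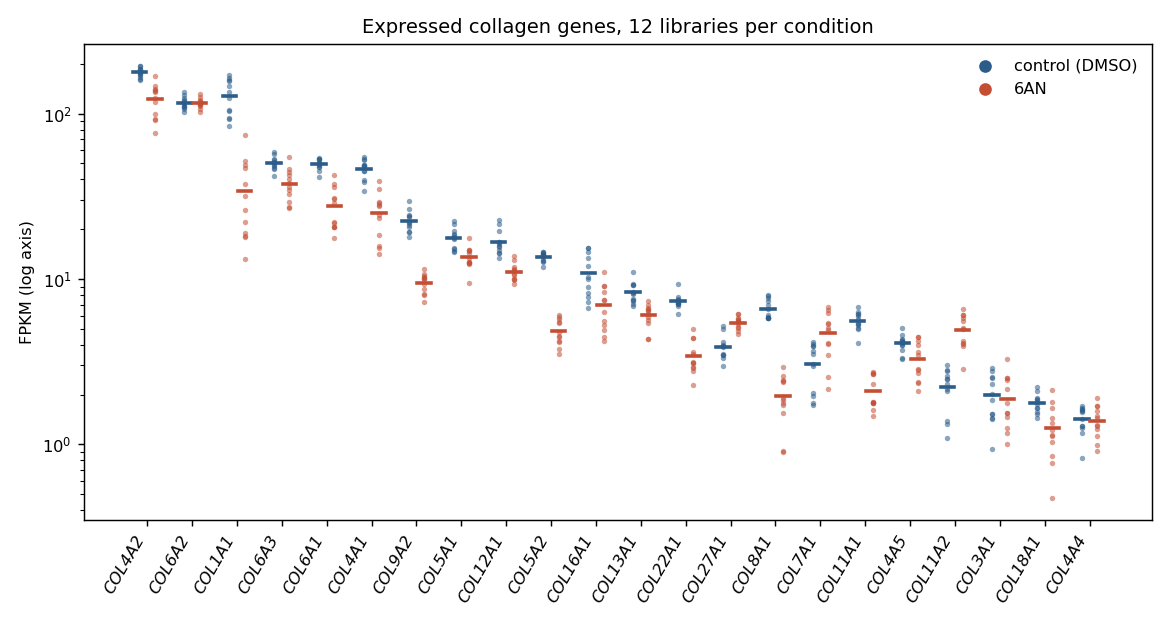
FPKM on a log axis for the 22 expressed collagen genes, ordered by mean; each point is 1 library and each bar the mean of 12 libraries of control (blue) or 6AN (red). *COL4A2*, *COL6A2* and *COL1A1* lead, and the means of 19 genes lie lower in 6AN.

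Collagen transcripts were lower with 6AN, most of all *COL1A1*. The tables were normalized apart, so the levels are set side by side without a test, and in bulk RNA fewer cells of a kind and less RNA per cell cannot be told apart. The mean was lower in 6AN for 19 of 22 genes, where 55.2% of expressed loci were lower (13704 loci with a mean above 0 in both tables). The median log2 ratio of 6AN to control was -0.52 over the collagen genes and -0.05 over all these loci. The 22 genes summed to between 624 and 766 FPKM in control libraries (median 700.0) and between 340.1 and 605 FPKM in 6AN libraries (median 447). Every 6AN library was thus below every control library in summed collagen FPKM, though narrowly at the closest. The sum was 605 FPKM at 0 hr in 6AN, of which *COL1A1* was 73.8 FPKM. At 32 hr in control it was 624 FPKM, of which *COL1A1* was 92.6 FPKM. The separation was not examined without *COL1A1*, and no such sum was taken over other loci.

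By at least 1.5 times, 10 genes were lower in 6AN, where 11.7% of loci were. *COL1A1* averaged 128 ± 31.5 FPKM in control and 33.9 ± 18.3 FPKM in 6AN (SD, n = 12 time points), a ratio of 3.78. *COL8A1* averaged 6.63 ± 0.890 and 1.95 ± 0.637 FPKM, and *COL5A2*, whose chain joins type I fibrils as part of type V, 13.6 ± 0.857 and 4.83 ± 0.859 FPKM (SD, n = 12 each). These SDs hold the drift over time as well as error, since each time point had 1 library. *COL11A1*, *COL9A2*, *COL22A1*, *COL4A1*, *COL6A1*, *COL16A1* and *COL12A1* were lower by 1.52 to 2.67 times. In *COL1A1*, *COL8A1*, *COL5A2*, *COL11A1*, *COL9A2* and *COL22A1* all 12 values in 6AN were under all 12 in control (6 genes), as they were in 10.5% of loci, and no collagen gene had all 12 over, as 6.01% of loci did.

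The mean of 3 collagen genes was higher in 6AN, where 44.8% of loci were higher. *COL11A2*, a minor chain of cartilage fibrils, averaged 2.21 ± 0.628 FPKM in control and 4.94 ± 1.12 FPKM in 6AN, and *COL7A1* 3.07 ± 0.946 and 4.72 ± 1.49 FPKM (SD, n = 12 each). Both passed the 1.5-fold mark, which 6.96% of loci passed upward, and both were higher in 6AN at all 12 time points. So were 1816 of the 13979 expressed loci, a count equal to 13.3% of the 13704 with a mean above 0 in both tables. *COL27A1*, a fibrillar collagen of cartilage, was higher in 6AN at 11 of 12 time points, with means of 3.90 and 5.45 FPKM. At the other end, 12 genes were lower at all 12 time points. So were 2854 of the 13979 expressed loci, a count equal to 20.8% of the same 13704. *COL6A2*, with 116.6 FPKM in control and 116.2 FPKM in 6AN, *COL4A4* (1.42 and 1.39 FPKM) and *COL3A1* (1.99 and 1.89 FPKM) had nearly equal means in both tables.

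The gap between the tables was narrower in the first sample than later. At 0 hr, 13 of the 22 genes were lower in 6AN and 9 higher, with a median difference of -0.19 in log2(FPKM + 1). By their means over all time points 55.2% of loci were lower, and the share at single time points was not counted. From 4 to 44 hr, between 17 and 19 genes were lower at each time point, with medians between -0.39 and -0.72. Over all expressed loci the median difference stayed between -0.06 and -0.02 at every time point.

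**Figure D2:**
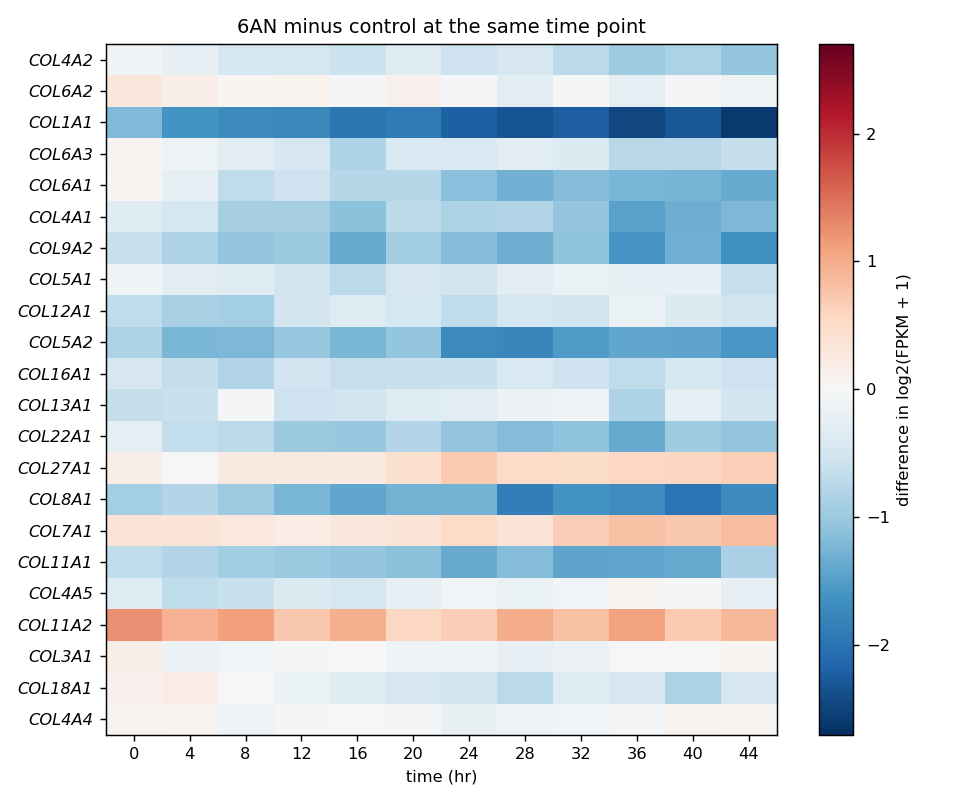
Difference in log2(FPKM + 1) between 6AN and control at the same time point (columns, hr) for the 22 expressed collagen genes (rows, ordered by mean level); blue is lower and red higher in 6AN. *COL1A1*, *COL5A2* and *COL8A1* are blue at every time point, and *COL11A2* and *COL7A1* are red at every time point.

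Trends over culture were measured as the slope of a straight line through the 12 values of log2(FPKM + 1), tested with limma across all 13979 expressed loci with Benjamini-Hochberg adjustment, and are given as the change over 44 hr. This scale understates the change of genes near 1 FPKM. Rose and fell below stand for an adjusted p of at most 0.05. In control, 6 of 22 collagen genes fell and 2 rose, where 3.13% of loci fell and 3.13% rose. In 6AN, 13 of 22 fell and 1 rose, where 13.1% of loci fell and 12.3% rose. The median change over the collagen genes was 0.01 in control and -0.52 in 6AN, and over all loci 0 in both. Without the 0 hr library the count that fell in 6AN was 8.

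**Figure D3:**
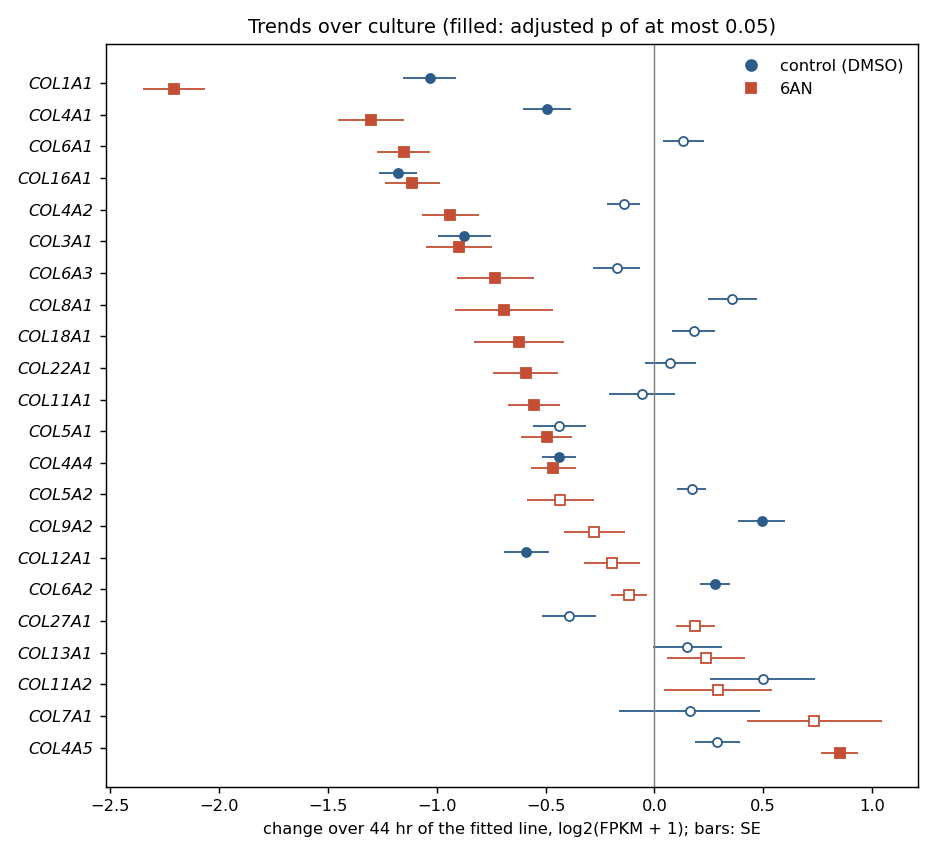
Change of the fitted line over 44 hr in log2(FPKM + 1), with its SE, for the 22 expressed collagen genes in control (blue circles) and 6AN (red squares); filled symbols have an adjusted p of at most 0.05 (limma). The red symbols run from -2.21 (*COL1A1*) to 0.85 (*COL4A5*) and the blue from -1.18 (*COL16A1*) to 0.50 (*COL11A2*, not filled).

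Among the fibrillar collagens, *COL1A1* fell in both conditions and further in 6AN. In control it was 170.5 FPKM at 0 hr and 84.5 FPKM at 44 hr, its highest and lowest values, around a median of 129 FPKM. In 6AN it was 73.8 FPKM at 0 hr and 13.3 FPKM at 44 hr, again the highest and lowest, around a median of 29.0 FPKM. In 6AN all of the last 6 values lay under all of the first 6, and in control 5 of the last 6 did. The fitted change was -1.03 ± 0.12 (SE) in control, adjusted p = 7.2e-04, and -2.21 ± 0.14 in 6AN, adjusted p = 5.9e-06, a fall of 4.62 times on this scale. The change was lower in 6AN by 1.18 ± 0.19, adjusted p = 4.3e-04.

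*COL3A1*, the type III chain that accompanies type I in soft tissue, fell to nearly the same extent in both. It ran from 0.939 to 2.90 FPKM in control (median 1.94) and from 1.01 to 3.27 FPKM in 6AN (median 1.66), with the lowest value of each table at 44 hr. All of the last 6 values lay under all of the first 6 in both tables. The changes were -0.87 ± 0.12 (adjusted p = 0.0018) and -0.90 ± 0.15 (adjusted p = 0.0016), and their difference of -0.03 ± 0.21 did not pass the test (adjusted p = 0.96).

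Among the minor fibrillar chains, *COL5A1* and *COL11A1* fell in 6AN and the other called results were of the difference between conditions. *COL5A1* fell in 6AN, from 17.8 FPKM at 0 hr to 9.52 FPKM at 44 hr (median 13.0). The change was -0.49 ± 0.12 (adjusted p = 0.010), a call lost in 3 of 20 alternative analyses. These were without the 0 hr library, with Spearman's rho against random orders of the time points, and between the last and first 6 time points. In control *COL5A1* ranged from 14.5 to 22.4 FPKM (median 17.8), and its change of -0.44 ± 0.12 missed the threshold (adjusted p = 0.057). *COL5A2*, its partner in type V collagen, was between 11.8 and 14.6 FPKM in control (median 13.9) and between 3.53 and 6.03 FPKM in 6AN (median 4.66). Its values in 6AN were all lower in the last 6 time points than in the first 6. Neither trend of *COL5A2* passed the test, at 0.17 ± 0.07 and -0.43 ± 0.15, but they differed (adjusted p = 0.024), a difference whose adjusted p was 0.082 with time point as a block and 0.14 without the 0 hr libraries. The 6AN trend itself (adjusted p = 0.058) passed in 3 alternative analyses, with a 24 hr cosine and sine (adjusted p = 0.0030), between the last and first 6 time points (adjusted p = 0.0048) and with rescaled libraries (adjusted p = 0.049). *COL11A1*, another minor chain of cartilage fibrils, fell in 6AN by 0.55 ± 0.12 (adjusted p = 0.0062). It was between 2.33 and 2.74 FPKM up to 16 hr in 6AN and between 1.49 and 1.81 FPKM from 20 hr on, whereas control values ran from 4.12 to 6.75 FPKM without a called trend.

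*COL27A1* was the fibrillar gene with the opposite contrast. It went from 3.94 FPKM at 0 hr to 3.34 FPKM at 44 hr in control (lowest 2.98, median 3.90, highest 5.17) and from 4.62 to 5.79 FPKM in 6AN (lowest 4.62, median 5.50, highest 6.15). Neither trend was called, at -0.39 ± 0.12 (adjusted p = 0.093) and 0.19 ± 0.09 (adjusted p = 0.16). The change was higher in 6AN by 0.58 ± 0.15, adjusted p = 0.020, but without the 4 hr libraries the adjusted p was 0.074.

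Of the basement membrane collagens, *COL4A1* and *COL4A2*, the chains of the common type IV network, fell together in 6AN. *COL4A2*, the most abundant collagen transcript, was 168 FPKM at 0 hr and 76.1 FPKM at 44 hr in 6AN (median 129). In control it stayed between 159 and 195 FPKM (median 178). Its change in 6AN was -0.94 ± 0.13 (adjusted p = 5.5e-04), against -0.14 ± 0.08 in control (adjusted p = 0.33), and the difference passed (adjusted p = 0.0023). *COL4A1* was 39.0 FPKM at 0 hr and 14.2 FPKM at 44 hr in 6AN (median 26.1), and between 34.0 and 54.5 FPKM in control (median 48.3). It fell in both, by 1.30 ± 0.15 in 6AN (adjusted p = 1.6e-04) and by 0.49 ± 0.11 in control (adjusted p = 0.021). Its trends differed (adjusted p = 0.0086), though not without the 0 hr libraries (adjusted p = 0.070). The fall of *COL4A1* in control was lost in 3 of 20 alternative analyses. These were without the 40 hr or the 44 hr library and between the last and first 6 time points.

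These genes lie head to head on chromosome 13 with 126 bp between their starts, so that 1 short interval is upstream of both. The interval is shown because both neighbors fell in 6AN. It is printed from RefSeq (GRCh38.p14, chr13:110307158-110307283) on the plus strand, which reads toward *COL4A2*, with CCAAT and GGGCGG, the letters of the CCAAT box and the GC box, in capitals where they occur on either strand. Of its bases 80.2% are G or C.
COL4A1-COL4A2: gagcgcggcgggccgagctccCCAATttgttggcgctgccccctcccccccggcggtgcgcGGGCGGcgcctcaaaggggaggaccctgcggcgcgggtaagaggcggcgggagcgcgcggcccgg
An antisense locus, *COL4A2-AS1*, is listed over the same bounds as *COL4A2* at 23.6 FPKM in control and 17.6 FPKM in 6AN. The microRNA *MIR8073* is listed over these bounds as well, so they need not be the bounds of each gene. Whether reads were counted by strand is not given in the sources used here. Without strand, reads from bases that both genes transcribe cannot be told apart, and how many these were was not tested.

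The other type IV pairs were used from one side. *COL4A5* averaged 4.09 FPKM in control and its head-to-head neighbor *COL4A6*, 346 bp away, 0.102 FPKM. *COL4A4* averaged 1.42 FPKM and *COL4A3*, 5 bp away, 0.0439 FPKM. *COL4A5* was the only collagen gene that rose in 6AN, from 2.34 FPKM at 0 hr to 4.20 FPKM at 44 hr (lowest 2.11, median 3.17, highest 4.46). All of its last 6 values in 6AN lay over all of the first 6. The change was 0.85 ± 0.09 (adjusted p = 6.9e-05) in 6AN and 0.29 ± 0.10 in control (adjusted p = 0.13), where it ran from 3.27 to 5.06 FPKM (median 4.14). The difference of 0.56 ± 0.14 passed (adjusted p = 0.011), but not without the 4 hr libraries (adjusted p = 0.057). *COL4A4* fell alike in both, by 0.44 ± 0.08 in control (adjusted p = 0.0083) and by 0.46 ± 0.10 in 6AN (adjusted p = 0.0078), from 1.71 to 0.829 FPKM and from 1.91 to 0.906 FPKM between 0 and 44 hr.

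The chains of type VI collagen parted in 6AN. *COL6A1* was 42.8 FPKM at 0 hr and 17.7 FPKM at 44 hr, its highest and lowest values (median 25.6), and all of the last 6 values lay under all of the first 6. In control it was between 41.2 and 53.5 FPKM (median 49.8). Its change was -1.15 ± 0.12 in 6AN (adjusted p = 8.6e-05) and 0.13 ± 0.09 in control (adjusted p = 0.48), and the gap of -1.29 ± 0.16 was the largest trend difference among the collagen genes (adjusted p = 3.4e-05). *COL6A3* ran from 26.8 to 54.3 FPKM in 6AN (median 37.0) and from 42.1 to 58.8 FPKM in control (median 50.4). It fell in 6AN by 0.73 ± 0.18 (adjusted p = 0.012). This call was lost in 2 of 20 alternative analyses, without the 0 hr library and between the last and first 6 time points. *COL6A2*, which lies 93069 bp from *COL6A1* on chromosome 21, stayed between 102.4 and 131 FPKM in 6AN (median 116) with a change of -0.12 ± 0.08 (adjusted p = 0.33). In control *COL6A2* rose by 0.28 ± 0.07 (adjusted p = 0.033), from 106.5 FPKM at 0 hr to 129.7 FPKM at 44 hr (lowest 102.4, median 115, highest 135). This rise was lost in 10 of 20 alternative analyses, among them those without the 0, 4, 8, 28, 36 or 44 hr library. Trends were not tested between genes.

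**Figure D4:**
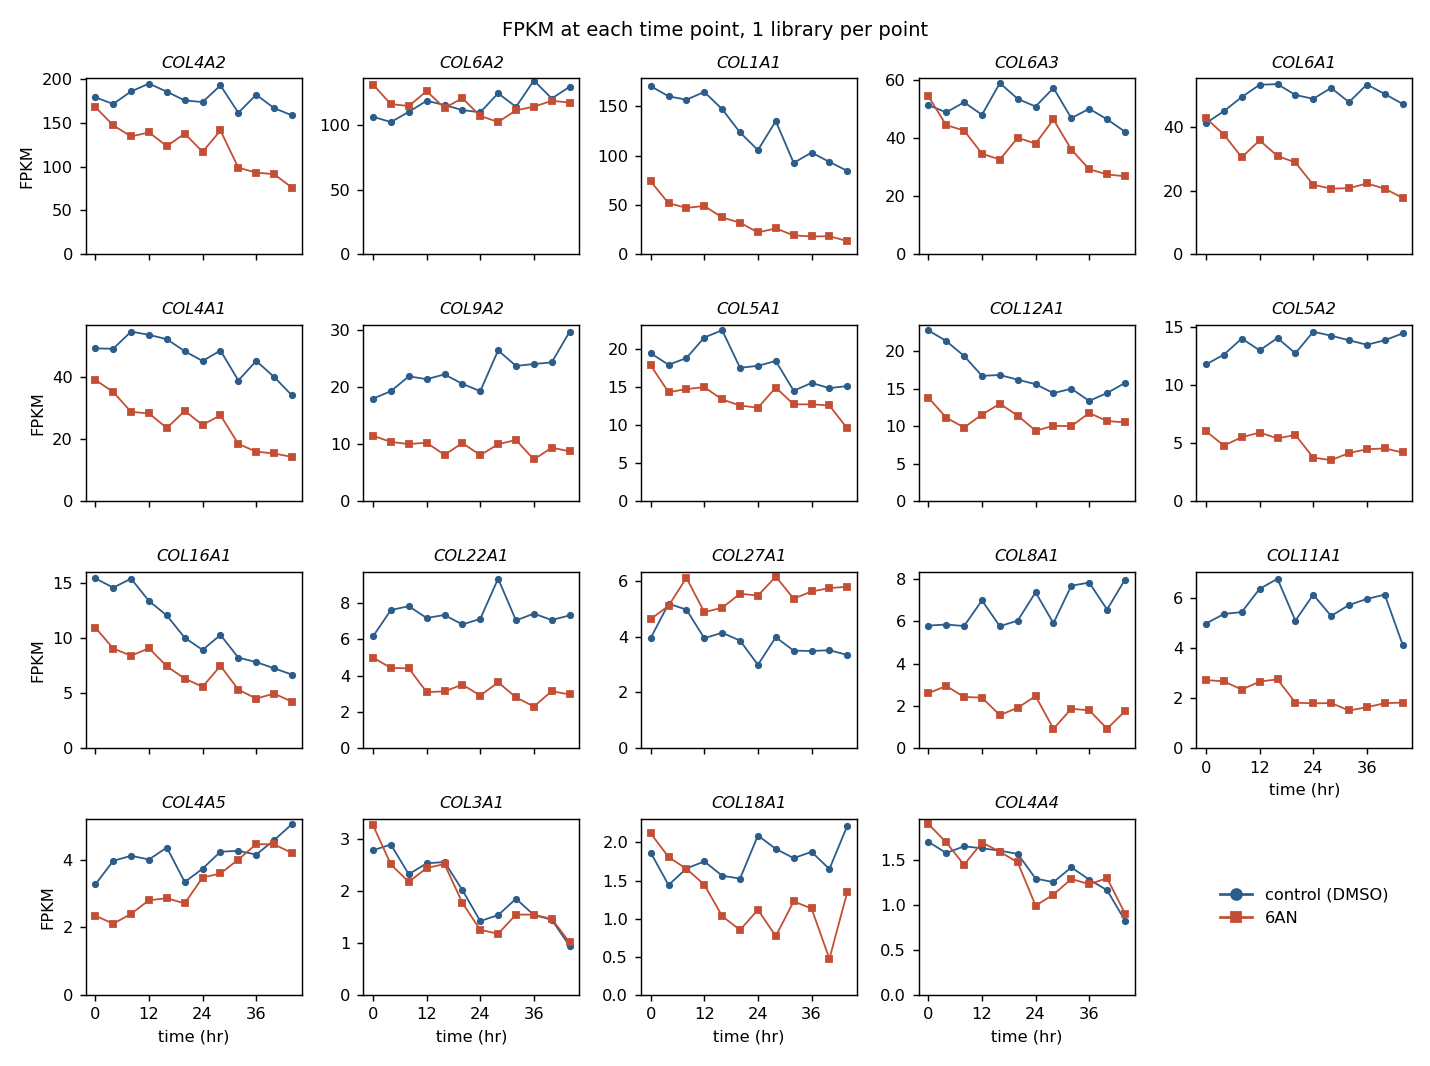
FPKM at each time point (hr) for the 19 collagen genes with a called trend in control, in 6AN or in their difference; blue circles are control and red squares 6AN, and each axis starts at 0. *COL1A1*, *COL4A1*, *COL4A2* and *COL6A1* decline in 6AN to their lowest value at 44 hr, *COL4A5* climbs, and *COL3A1*, *COL16A1* and *COL4A4* decline in both.

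Among the fibril-associated collagens, *COL16A1* fell in both conditions by nearly the same amount. In control it was 15.4 FPKM at 0 hr and 6.67 FPKM at 44 hr, its highest and lowest values (median 10.2). In 6AN it was 10.95 FPKM at 0 hr and 4.21 FPKM at 44 hr, again the highest and lowest (median 6.87). The changes were -1.18 ± 0.09 (adjusted p = 5.9e-05) and -1.11 ± 0.13 (adjusted p = 1.3e-04), and their difference of 0.06 ± 0.15 did not pass (adjusted p = 0.85). *COL12A1* fell in control by 0.59 ± 0.10 (adjusted p = 0.0072), from 22.8 FPKM at 0 hr to a lowest value of 13.4 FPKM at 36 hr (median 15.98), and all of its last 6 values lay under the first 6. In 6AN it was between 9.39 and 13.8 FPKM (median 10.9) with no called trend (-0.19 ± 0.13, adjusted p = 0.31), and the trends of *COL12A1* did not differ by the test (adjusted p = 0.15).

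*COL9A2*, a type IX chain found on cartilage fibrils, rose in control from 17.9 FPKM at 0 hr to 29.7 FPKM at 44 hr, its lowest and highest values (median 22.0). In control 5 of its last 6 values lay over all of the first 6. In 6AN it was between 7.27 and 11.4 FPKM (median 9.96). The change was 0.49 ± 0.11 in control (adjusted p = 0.020) and -0.28 ± 0.14 in 6AN (adjusted p = 0.18), with a difference of -0.77 ± 0.18 (adjusted p = 0.0081). The rise in control was lost in 4 of 20 alternative analyses, among them those without the 0 hr or the 44 hr library. The difference was lost without the 0 hr libraries (adjusted p = 0.066). *COL22A1*, a collagen of tissue junctions, fell in 6AN from 4.99 FPKM at 0 hr to a lowest value of 2.29 FPKM at 36 hr (median 3.13, change -0.59 ± 0.15, adjusted p = 0.014). In control *COL22A1* was between 6.16 and 9.35 FPKM (median 7.25) without a called trend, and the difference of -0.66 ± 0.19 passed (adjusted p = 0.030). Both calls of *COL22A1* were lost without the 0 hr libraries. In all, the fall was lost in 3 of 20 and the difference in 6 of 16 alternative analyses.

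*COL8A1* and *COL18A1* fell in 6AN with adjusted p-values close to the threshold. *COL8A1* ran from 0.906 to 2.94 FPKM in 6AN (median 1.88) and from 5.77 to 7.98 FPKM in control (median 6.30). Its change was -0.69 ± 0.23 in 6AN (adjusted p = 0.044) and 0.36 ± 0.11 in control (adjusted p = 0.092), and the difference of -1.05 ± 0.26 passed (adjusted p = 0.012). *COL18A1* ran from 0.472 to 2.12 FPKM in 6AN (median 1.18) and from 1.44 to 2.22 FPKM in control (median 1.77). Its change was -0.62 ± 0.20 in 6AN (adjusted p = 0.045), 0.18 ± 0.10 in control (adjusted p = 0.34) and the difference -0.80 ± 0.25 (adjusted p = 0.049). The fall of *COL8A1* was lost in 12 and that of *COL18A1* in 15 of 20 alternative analyses, of which 8 and 9 in turn were without a single time point. *COL13A1*, between 4.31 and 10.95 FPKM over both tables, had no called trend.

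The trend itself differed between conditions for 12 of 22 collagen genes. It was lower in 6AN for 10 genes, where 4.81% of loci were lower, and higher in 6AN for *COL27A1* and *COL4A5*, where 4.04% were higher. Without the 0 hr libraries 4 were lower, and without the 4 hr libraries none was higher (limma; unadjusted p-values of *COL27A1* and *COL4A5* over all time points were 0.0011 and 4.8e-04). *COL1A1*, *COL4A1*, *COL16A1*, *COL3A1* and *COL4A4* fell in both conditions (5 genes), as did 1.51% of loci, and none rose in both, as 1.41% of loci did. A further 8 genes passed for a fall in 6AN and not in control. Of all loci 13.1% fell in 6AN and 3.13% in control, and those that fell in 6AN alone were not counted. Of the 8 genes, *COL6A1*, *COL4A2*, *COL8A1*, *COL18A1* and *COL22A1* also passed the test of the difference, and *COL6A3*, *COL11A1* and *COL5A1* did not.

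No collagen gene had a called 24 hr rhythm after adjustment. A 24 hr cosine and sine added to the line reached p of at most 0.01 in 0 of 22 genes in control, where 1.42% of loci did, and in 2 in 6AN, where 1.99% did (limma F test, unadjusted). These were *COL5A2*, with an amplitude of 0.21 ± 0.04 in log2(FPKM + 1) and p = 0.0044, and *COL6A3*, with 0.24 ± 0.05 and p = 0.0046, both with adjusted p = 0.41. At an unadjusted p of at most 0.05 the counts were 0 in control and 4 in 6AN, where 6.79% and 7.82% of loci passed. After adjustment 0.00715% of loci in control and 0% in 6AN passed.

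*COL7A1* and *COL11A2* had low values at some of the hours that are multiples of 12, each seen in 1 library per condition. The *COL7A1* values are those of the entry it shares with *MIR711*. *COL7A1* in control was 1.79, 1.74, 2.06 and 1.97 FPKM at 0, 12, 24 and 36 hr and between 2.97 and 4.14 FPKM at the other 8 time points. In 6AN it was 2.54, 2.15, 3.46 and 4.11 FPKM at the same hours and between 4.05 and 6.79 FPKM at the others, so that 36 hr lay just above the 20 hr value. *COL11A2* was 1.09, 1.33 and 1.38 FPKM at 0, 12 and 36 hr in control, its 3 lowest values, and 3.92, 2.86 and 4.03 FPKM at those hours in 6AN, again the 3 lowest. At 24 hr it was not low in control, with 2.31 FPKM against 2.12 and 2.17 FPKM at 4 and 8 hr, and in 6AN its 4.22 FPKM lay above the 4.12 FPKM of 20 hr. A 12 hr cosine and sine, fitted after these values were seen, gave p = 3.1e-05 and p = 7.9e-04 for *COL7A1* and p = 0.0027 and p = 0.0094 for *COL11A2*, in control and 6AN in turn (limma F test, unadjusted). They were the 2 collagen genes at p of at most 0.01 in each condition, where 2.08% and 1.32% of loci were. None passed adjustment (adjusted p from 0.12 to 0.74), and 0% of loci did. The source of the pattern was not tested. The linear trend of *COL7A1* was higher in 6AN by 0.57 ± 0.45, which did not pass (adjusted p = 0.50) but did with time point as a block, the fit that pairs the libraries of each hour (adjusted p = 0.012).

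**Figure D5:**
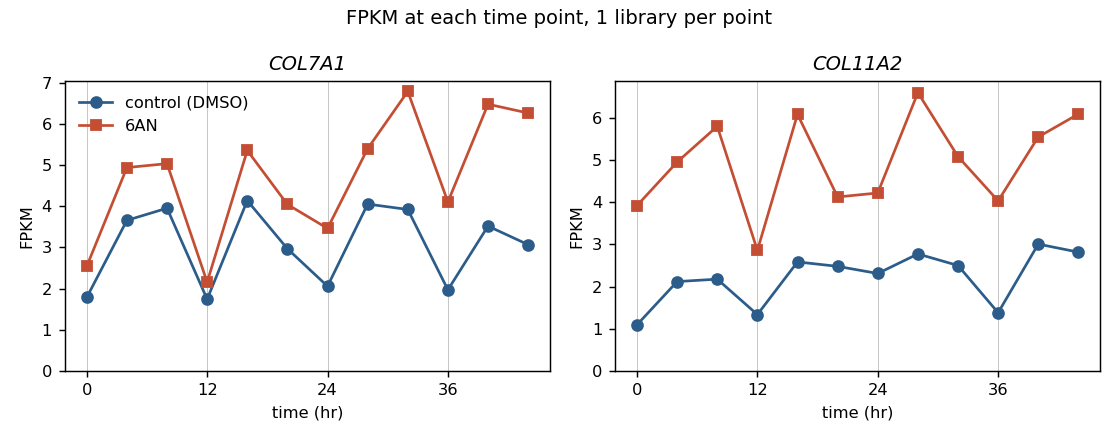
FPKM of *COL7A1* and *COL11A2* at each time point (hr), 1 library per point, in control (blue circles) and 6AN (red squares), on axes from 0. In control, *COL7A1* is near 2 FPKM at 0, 12, 24 and 36 hr and 2.97 FPKM or more at every other time point.

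Enzymes and partners of collagen were followed as a list of 59 genes, of which 47 were expressed. In control 7 rose and 4 fell by the same test, where 3.13% of loci rose and 3.13% fell. In 6AN 5 rose and 18 fell, where 12.3% of loci rose and 13.1% fell. Trends of the list differed in 14, lower in 6AN in 12 and higher in 2, where 4.81% and 4.04% of loci did. Counts by role below are small, stand beside these same shares and are not read as traits of a role. Of 16 expressed genes of chain modification and folding, 3 rose in control, and in 6AN 2 rose and 5 fell. *FKBP10*, a folding catalyst of procollagen, rose in control by 0.39 ± 0.07 (adjusted p = 0.0089). *CRTAP*, a subunit of the prolyl 3-hydroxylase complex, rose in 6AN by 0.36 ± 0.06 (adjusted p = 0.0015) and in control by 0.25 ± 0.07 (adjusted p = 0.049), and *PLOD2*, which hydroxylates lysines for cross-linking, rose in 6AN by 0.27 ± 0.08 (adjusted p = 0.025). Of 5 secretion genes 1 rose and 1 fell in 6AN, and none of 5 passed in control (limma; 1 had an unadjusted p under 0.05).

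Of 10 genes of propeptide removal and cross-linking, 4 fell in 6AN and 2 in control. Over all loci 13.1% and 3.13% fell and 12.3% and 3.13% rose, in 6AN and control in turn. *PCOLCE*, which enhances removal of the procollagen tail, averaged 16.5 FPKM in control and 9.26 FPKM in 6AN and fell in 6AN by 1.76 ± 0.15 (adjusted p = 2.8e-05). *LOXL4*, a lysyl oxidase, was higher in 6AN, with 139 against 64.5 FPKM, and fell in both, by 1.38 ± 0.14 (adjusted p = 7.2e-05) and 0.78 ± 0.14 (adjusted p = 0.0067). Of 5 genes of degradation 2 fell in 6AN, where 1 rose and 1 fell in control, the latter the gelatinase *MMP2* (-0.56 ± 0.11, adjusted p = 0.011), which also fell in 6AN (-0.61 ± 0.10, adjusted p = 0.0014). Of 6 receptors 2 rose in control, where the integrin chain *ITGA1* changed by 0.34 ± 0.06 (adjusted p = 0.010), at a locus it shares with *PELO*. In 6AN 1 receptor rose and 2 fell, and *DDR2*, a receptor kinase for fibrillar collagen, rose by 1.23 ± 0.12 (adjusted p = 5.4e-05), as it did by 0.85 ± 0.19 in control (adjusted p = 0.024).

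Of 5 matrix partners 4 fell in 6AN, where 13.1% of loci fell. *FN1*, the fibronectin on which collagen fibrils assemble, rose in control by 0.73 ± 0.08 (adjusted p = 7.1e-04) and fell in 6AN by 0.33 ± 0.08 (adjusted p = 0.013). *THBS1*, thrombospondin 1, fell in both, by 1.12 ± 0.18 (adjusted p = 0.0038) and 1.31 ± 0.09 (adjusted p = 8.7e-06). *SPARC*, a collagen-binding protein of bone that is also on the list of osteoblast markers, averaged 323 FPKM in control and 129 FPKM in 6AN. It was the largest part of that list's summed level. The sum ran from 343 to 417 FPKM in control and from 127 to 239 FPKM in 6AN. Of the list's other expressed members, *RUNX2* (13.99 and 13.90 FPKM in control and 6AN) and the *BGLAP* locus (23.1 and 22.8 FPKM) had nearly equal means. *ALPL* was lower in 6AN (6.41 and 3.73 FPKM) and *SPP1* higher (2.07 and 4.00 FPKM). The part of cell state in the collagen levels was not tested.

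BMAL1 and CLOCK peaks were rare at collagen genes. None of the 147 shared BMAL1/CLOCK sites of control and none of the 439 of 6AN was assigned by the authors to a collagen gene. These sites are few beside 28690 loci, so their absence from 44 genes is not read as a lack. Of 4001 merged peaks, 2 lay within 5 kb of a collagen locus, so that 1 of 22 expressed collagen genes had a peak, where 29.7% of expressed loci did. One was a BMAL1 peak in 6AN at chr1:40316626-40316826, inside *COL9A2* and centered 560 bp downstream of its RefSeq start, with a peak score of 13.3. The other was a CLOCK peak in 6AN at chr10:104086135-104086335, upstream of *COL17A1*, which was not expressed, with a peak score of 25.3. Neither was called in the control libraries, and each condition had 1 library per antibody, so these peaks have no replicate.

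In the 250 bases upstream of the RefSeq starts, 16 of the 22 expressed collagen genes had an entry; *COL1A1*, *COL22A1*, *COL3A1*, *COL5A2*, *COL6A1* and *COL8A1* had none. Matches were counted on both strands. CACGTG, the E-box to which BMAL1 and CLOCK bind, was in 0 of 16, where 7.73% of all 27305 genes with an entry hold it. GGGCGG was in 12 of 16 (all genes, 46.2%), CCAAT in 5 (37.0%) and TATAAA, the TATA box, in 4 (13.0%). The sequences of *COL16A1*, which fell in both conditions, *COL4A5*, which rose in 6AN, and *COL6A2*, which had no called trend in 6AN, are shown 5′ to 3′ toward the gene with these letters in capitals (GRCh38.p14). They lie at chr1:31704018-31704267 on the minus strand, chrX:108439588-108439837 on the plus strand and chr21:46097862-46098111 on the plus strand.
COL16A1: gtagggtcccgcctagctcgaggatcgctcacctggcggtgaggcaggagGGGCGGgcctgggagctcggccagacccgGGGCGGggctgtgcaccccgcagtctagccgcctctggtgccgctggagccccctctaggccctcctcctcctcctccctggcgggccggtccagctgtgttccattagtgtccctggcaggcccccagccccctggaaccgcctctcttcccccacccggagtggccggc
COL4A5: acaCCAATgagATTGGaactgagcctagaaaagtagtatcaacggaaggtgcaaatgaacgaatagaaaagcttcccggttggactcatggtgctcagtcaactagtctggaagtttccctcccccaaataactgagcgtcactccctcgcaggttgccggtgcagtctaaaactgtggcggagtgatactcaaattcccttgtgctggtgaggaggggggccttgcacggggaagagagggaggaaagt
COL6A2: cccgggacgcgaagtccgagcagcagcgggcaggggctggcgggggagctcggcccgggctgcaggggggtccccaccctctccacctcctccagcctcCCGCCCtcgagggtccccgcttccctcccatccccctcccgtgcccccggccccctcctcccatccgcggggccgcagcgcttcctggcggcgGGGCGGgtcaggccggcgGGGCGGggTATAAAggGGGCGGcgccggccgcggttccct
*COL4A5* holds 2 matches to CCAAT and none to GGGCGG, and 51.2% of its bases are G or C. *COL16A1* holds 2 and *COL6A2* 4 matches to GGGCGG, with 73.2% and 79.6% G or C, and *COL6A2* alone of these holds TATAAA. No match overlaps another in these windows, and a match is not evidence that a factor binds there.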

How the data were processed

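RNA-seq covered 24 libraries of *Bmal1*:*luc* U2OS cells (12 control, 12 6AN) and ChIP-seq 10. The submitters' processing notes name Bowtie, Bowtie2, TopHat, Cufflinks, HOMER and hg38. The authors deposited FPKM values in 1 table per condition, laid out as Cufflinks writes them, and the tables were taken as normalized apart. The deposited peak score is HOMER's for the merged peak, where, per the file headers, peaks within 200 bp were joined. Versions, and whether reads were counted by strand, are not given in the sources used here. RNA was extracted in triplicate, but the tables hold 1 column per time point and condition, so p-values rest on the spread around the line, which may be partly technical.

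Every per-sample column was mapped by its label. Trends were fitted on log2(FPKM + 1) with limma 3.58.1 (R 4.3.3; empirical Bayes with an intensity trend, two-sided), loci under a mean of 1 FPKM were left out, and p-values were adjusted by Benjamini-Hochberg over 13979 loci. The difference of trends is the interaction of condition and hours, which a constant scaling of a table leaves nearly unchanged except for genes near the pseudocount. Locus starts are 1-based. Tables were read with pandas 2.3.3 and NumPy 2.4.6 under Python 3.11.15, figures were drawn with matplotlib 3.10.9, and the fits were tested on simulated data. Other pseudocounts, filters, scalings, models and peak distances were tried, and each time point was left out in turn.

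The members and lists were chosen with earlier results of these data known. Every expressed collagen gene is named; values over time are given for those with a called trend or trend difference (all time points are plotted), and of the list of enzymes and partners the 3 smallest p-values per direction and condition are named. *COL7A1* and *COL11A2* were described over time after their values were seen. So were *SPARC*, *ADAMTS14*, *MMP8*, *MMP13*, *MMP14* and the other genes of that list with a called trend difference named. Histone mark and input libraries were not analysed here.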

Additional observations from a re-analysis of the deposited data

Results flagged for a closer look

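For 12 collagen genes the trend over culture differed between 6AN and control by the limma interaction test with Benjamini-Hochberg adjustment. The change over 44 hr in 6AN minus that in control, in log2(FPKM + 1), was -1.29 for *COL6A1*, -1.18 for *COL1A1*, -1.05 for *COL8A1*, -0.81 for *COL4A1*, -0.80 for *COL4A2* and -0.80 for *COL18A1*. It was -0.77 for *COL9A2*, -0.66 for *COL22A1*, -0.60 for *COL5A2* and -0.39 for *COL6A2*, and it was 0.58 for *COL27A1* and 0.56 for *COL4A5*. *COL1A1*, *COL4A2*, *COL6A1* and *COL8A1* passed in each of the 16 alternative analyses, and each of the other 8 genes was lost in at least 1, *COL18A1* in 11.

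Of the 47 expressed enzymes and partners of collagen, 14 differed in trend by the same test, 12 lower in 6AN (4.81% of loci) and 2 higher (4.04% of loci). The difference was -1.10 for *P4HA3*, -0.59 for *P3H4*, -0.52 for *P3H1*, -0.34 for *P4HB* and -0.31 for *FKBP10*, genes of chain modification and folding. Of propeptide removal and cross-linking, it was -1.76 for *PCOLCE* and -1.05 for *LOXL2*, and of degradation -1.06 for *MMP1* and -0.70 for *MRC2*. Of the matrix partners, it was -1.31 for *TNC*, -1.06 for *FN1* and -0.82 for *SPARC*. It was 0.52 for *PLOD2* and 0.32 for the integrin chain *ITGB1*.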

How the results depend on the processing

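No called change turned direction in any alternative tried. *COL1A1*, *COL3A1* and *COL16A1* kept their fall in control, and *COL1A1*, *COL3A1*, *COL4A1*, *COL4A2*, *COL4A4*, *COL6A1* and *COL16A1* their fall and *COL4A5* its rise in 6AN, in each of 20 alternatives. Leaving out 1 time point in turn gave between 0 and 2 rises in control (0 without 0 hr or 44 hr) and, in 6AN, between 8 and 13 falls (8 without 0 hr) and 1 to 2 rises (2 without 8 hr). It gave 4 to 10 trend differences lower in 6AN (4 without 0 hr) and 0 to 2 higher (0 without 4 hr), 0 to 1 rhythms in control and 0 to 3 in 6AN, and 1 to 2 genes higher in 6AN by 1.5 times (1 without 44 hr). Rises in control numbered 1 without the filter on low values, 1 with a 24 hr cosine and sine, 0 with Spearman's rho against random orders of the time points and 0 between the last and first 6 time points. At a fold of 2, 6 genes were lower and 1 higher in 6AN, and 1 was higher by the median over time points. Rhythms in 6AN numbered 1 without the slope and 4 at p of at most 0.05. Chosen after seeing the data, a 12 hr cosine and sine gave 2 rises in 6AN and 2 rhythms in control, and adjustment left 0 rhythms in 6AN. For the peaks, the locus alone gave 1 gene. With time point as a block, which pairs the 6AN and control libraries of each hour, the trend difference of *COL5A2* was lost (adjusted p = 0.082), that of *COL7A1* passed (0.57, adjusted p = 0.012), and no other call changed. With a pseudocount of 0.1 the trend difference of *COL18A1* was -1.34 and lost (adjusted p = 0.051), and that of *COL8A1* was -1.44. Among the collagen genes, 36 gene-level fits in 6AN, 19 in control and 27 of the difference lost a call, and 12 gained one. The causes were not tested. With 1 library per time point, the error is the spread around the line, and depth limits genes near 1 FPKM.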

Other observations

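*MMP1*, the interstitial collagenase, averaged 0.840 FPKM in control and 7.12 FPKM in 6AN. The listed *MMP2* (85.3 and 65.5 FPKM), *MMP14* (96.0 and 58.1 FPKM) and *MMP13* (0.641 and 0.192 FPKM, not expressed) were lower in 6AN, and *MMP8* was near 0. *ADAMTS14*, a peptidase that removes the amino-terminal tail of procollagen, averaged 1.76 FPKM in control and 0.216 FPKM in 6AN. By the rule used here *ADAMTS14* was not expressed, and its trend was not tested. All these levels were compared without a test, since the tables were normalized apart.

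Entries for the *MIR3689* family are listed over the same bounds as *COL5A1*, among them *MIR3689C* at 654 FPKM in control and 342 FPKM in 6AN. How reads were shared between these entries was not tested.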
